A study of Mus musculus with 8 samples.

Results

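Flavin monooxygenases and enzymes of choline metabolism were followed in Hepa1-6 cells, a mouse hepatoma line that the labels give as of strain C57BL/6. The 10 genes were taken from a list by name, out of 54446 genes in the count table. They are the flavin monooxygenases Fmo1, Fmo2 and Fmo5, the choline transporter gene Slc44a1, the choline kinase genes Chka and Chkb, and Pcyt1a, Pemt, Aldh7a1 and Sardh. All 10 were found by symbol, and all 10 passed the filter on low counts, Fmo1 only through the groups where it was high.

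Messenger RNA was sequenced from 4 groups of 2 libraries. The combined group was given trimethylamine N-oxide (TMAO) at 50 µM together with TNF-α, an inflammatory cytokine, at 50 ng/ml. The TNF-α group was given the cytokine alone at 50 ng/ml, the TMAO group was given TMAO alone at 50 µM, and the control group was untreated. Both agents, alone or together, were given for 24 h. The combined group was taken from its titles and the protocol, although one of its labels gives the name TMAO in both places. Within each group the titles number the libraries 14 and 16, and what these numbers mean is not stated. Nor is it stated that the 2 libraries are separate cultures, and p-values below therefore cover the spread between libraries alone, which may be technical. All groups are one cell line, a model of a hepatoma and not of a liver with its other cell types.

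Choline enters cells through transporters and has several fates. Choline kinase phosphorylates it for the CDP-choline pathway to phosphatidylcholine, the main membrane phospholipid, and mitochondria oxidise it to betaine, a methyl donor from which dimethylglycine and sarcosine arise. In the gut, bacteria turn choline into trimethylamine, which flavin monooxygenases of the liver oxidise to TMAO. The liver has a further route to phosphatidylcholine, in which Pemt methylates phosphatidylethanolamine.

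Promoter sequences are given for Fmo2 and Slc44a1, which fell with TNF-α, from the RefSeq table used (GRCm38.p6), and for Fmo5, whose change with TNF-α was not called, to set beside Fmo2. Each is the 250 bases before an annotated start, 5′ to 3′ on the strand of the gene, and there are 2 starts each for Fmo2 and Slc44a1, of which the second of Slc44a1 lies 3 bases on and is not shown. Capitals mark exact matches, on either strand, to TATAAA, to CCAAT or to GGGCGG. Fmo2, first start, chr1:162898759-162899008 on the minus strand, and second start, chr1:162898494-162898743 on the minus strand, hold none of them. Fmo5, chr3:97628769-97629018 on the plus strand, holds one match to each, and Slc44a1, chr4:53440163-53440412 on the plus strand, holds matches to GGGCGG and its reverse complement alone.
Fmo2 first start: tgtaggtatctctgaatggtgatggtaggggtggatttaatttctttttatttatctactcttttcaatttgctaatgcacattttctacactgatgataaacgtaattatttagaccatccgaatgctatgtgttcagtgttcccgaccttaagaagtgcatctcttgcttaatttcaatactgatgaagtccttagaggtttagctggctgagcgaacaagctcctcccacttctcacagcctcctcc
Fmo2 second start: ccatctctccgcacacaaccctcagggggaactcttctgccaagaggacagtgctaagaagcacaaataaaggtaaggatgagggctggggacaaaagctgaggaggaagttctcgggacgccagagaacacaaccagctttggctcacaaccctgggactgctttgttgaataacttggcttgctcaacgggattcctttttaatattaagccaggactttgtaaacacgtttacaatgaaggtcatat
Fmo5: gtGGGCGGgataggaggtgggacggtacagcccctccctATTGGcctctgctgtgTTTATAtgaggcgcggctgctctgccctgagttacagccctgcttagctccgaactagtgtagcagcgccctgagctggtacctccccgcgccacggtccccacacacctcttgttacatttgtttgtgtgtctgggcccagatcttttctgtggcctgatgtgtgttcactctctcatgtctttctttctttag
Slc44a1: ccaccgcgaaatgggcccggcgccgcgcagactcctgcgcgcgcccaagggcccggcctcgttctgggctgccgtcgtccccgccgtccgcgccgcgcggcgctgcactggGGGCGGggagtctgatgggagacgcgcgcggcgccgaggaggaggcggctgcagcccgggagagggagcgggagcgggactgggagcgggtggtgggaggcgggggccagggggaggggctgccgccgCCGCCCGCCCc
Of 32851 promoter windows of the same length, 12.4% held TATAAA, 33.9% held CCAAT and 32.7% held GGGCGG. The decameric κB motif, also searched on both strands, was held by 7.25% of them. None of the 13 windows of members that were searched held it, and Fmo1 and Aldh7a1 were not among these. These windows were 39.6% and 47.6% G and C for the Fmo2 starts, 56% for Fmo5 and 81.2% for Slc44a1. A match, or none, describes the letters in the window and nothing further.

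Total counts ran from 24736746 to 30488605 a library, and 3 counts, taken as the limit of what a library can show, correspond to 0.0984 to 0.121 counts-per-million (CPM). Such limits cover counting error only. Hepatocyte-lineage markers Alb, Afp, Apob and Hnf4a stood at 66.5 to 1591 CPM. Of the same list, Trf stood at only 1.06 to 2.57 CPM, and Ttr, Apoa1 and Serpina1a reached at most 10 counts in a library. Summed levels of markers of other cells were 8.02 to 13.1 CPM for 3 leukocyte genes, 0.473 to 1.03 CPM for 2 endothelial genes and 0.946 to 2.41 CPM for 3 stellate cell or fibroblast genes. Of the leukocyte genes, Cd68 had 224 to 322 counts, whereas Ptprc had at most 9 and Adgre1 at most 4. Of the fibroblast genes, Col1a1 had 18 to 51 counts, Des 7 to 27 and Col3a1 0. One library stood apart. Over 8954 genes with at least 10 CPM, the log2 difference of TNF-α 16 minus TNF-α 14 had an SD of 0.576, against 0.177 in the control group, 0.0925 in the combined group and 0.0830 in the TMAO group. This difference followed annotated exon length, with a median of 0.51 in the shortest of 4 equal length classes and −0.54 in the longest (Spearman's rho −0.709 across genes, which share the 2 libraries). Control 16 minus control 14 ran the other way, with a median of −0.14 in the shortest class and 0.13 in the longest. Mean log2 CPM of 71 ribosomal protein genes was 9.59 in TNF-α 16, 9.03 in control 14 and 8.73 to 8.82 in the other 6 libraries. The members' averaged TNF-α effects are therefore also given without TNF-α 16 and control 14.

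Genes can be ranked by level only per length, which the authors' transcripts-per-million values (TPM) provide. By the mean of 8 libraries, Chka (160 TPM) and Aldh7a1 (132 TPM) stood highest, followed by Slc44a1 (38.2 TPM), Chkb (25.3 TPM), Pcyt1a (9.59 TPM), Pemt (8.42 TPM) and Fmo2 (4.86 TPM). Sardh (0.728 TPM), Fmo5 (0.571 TPM) and Fmo1 (0.378 TPM) stood lowest. Neighbours in this order overlapped between libraries for Chka and Aldh7a1, Slc44a1 and Chkb, Pcyt1a and Pemt, Sardh and Fmo5, and Fmo5 and Fmo1, so their order was not resolved. Fmo2 was above Sardh by 4.0-fold to 11.9-fold in every library.

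**Figure D1:**
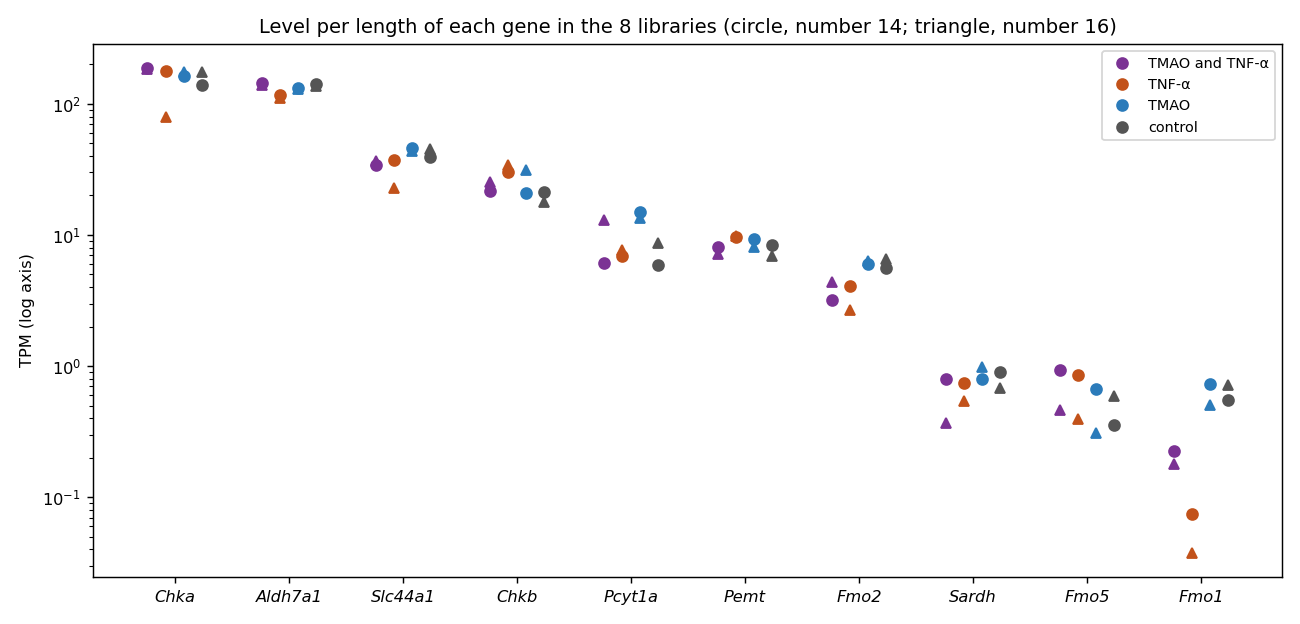
TPM (log axis) of the 10 genes, ordered by their mean, with 1 point for each of the 8 libraries (circle, number 14; triangle, number 16), coloured by group. Chka and Aldh7a1 lie above 78 TPM in every library and Fmo1, Fmo5 and Sardh below 1 TPM; Fmo1 has its lowest values in the TNF-α libraries.

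Flavin monooxygenases add oxygen to nitrogen and sulfur atoms of amines, drugs and other small molecules. Fmo1 and Fmo2 fell in cells given TNF-α when the 4 TNF-α libraries (combined and TNF-α groups) were compared with the 4 without the cytokine (TMAO and control groups), and Slc44a1 fell with them. In this comparison 3 of the 10 members were called lower and 0 higher, at an adjusted p of 0.05 over all 15613 genes tested with edgeR's quasi-likelihood test. Over all genes 9.2% were called, 3.86% lower and 5.35% higher. The median log2 fold change of the members was −0.11, against 0.00318 for all genes tested. The members were chosen with earlier results of these data known, so these values describe the list and do not test it. In bulk RNA, fewer cells of a kind and less RNA per cell cannot be told apart.

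Fmo1, a broad-substrate family member that can also oxidise trimethylamine, had 3 and 5 counts with both agents and 4 and 1 with TNF-α alone, against 10 and 15 with TMAO alone and 17 and 15 in control (numbers 14 and 16 in that order, here and below). In CPM these were 0.108, 0.177, 0.132 and 0.0414 with TNF-α, against 0.350, 0.497, 0.575 and 0.517 without it. Every library with TNF-α lay below every library without it. The averaged log2 fold change was −2.04 ± 0.41 (SE), with a 95% interval of −3.01 to −1.07 and an adjusted p of 0.0243 by edgeR. Summed counts were 13 with TNF-α against 57 without, a ratio per total count of 0.245 with an exact 95% interval of 0.123 to 0.454 that covers counting error only. Combined 14 and TNF-α 16 were at or under the limit of 3 counts. By TPM, Fmo1 had 0.226, 0.180, 0.0751 and 0.0378 with TNF-α, against 0.727, 0.506, 0.552 and 0.723 without it, which also do not overlap.

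Fmo2, known chiefly as the flavin monooxygenase of lung, was the most abundant of the 3 here. It stood at 5.64 and 7.94 CPM with both agents and 7.11 and 6.04 CPM with TNF-α alone, against 10.6 and 11.04 CPM with TMAO alone and 10.4 and 11.2 CPM in control. Again no library with TNF-α reached one without it. The means were 6.68 ± 1.05 CPM with TNF-α and 10.8 ± 0.388 CPM without it (SD, n = 4 each). The averaged log2 fold change was −0.69 ± 0.13 (SE), a 1.62-fold lower level, with an edgeR adjusted p of 0.0196.

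Fmo5, which differs from its relatives in catalysing Baeyer-Villiger oxidations of ketones, had 42 and 34 counts with both agents, 41 and 27 with TNF-α alone, 37 and 23 with TMAO alone and 28 and 40 in control. The groups overlapped throughout. Its averaged log2 fold change with TNF-α was 0.25, with a 95% interval of −0.35 to 0.84 (edgeR adjusted p = 0.702), an interval that holds both signs, and 0.20 without TNF-α 16 and control 14. The ratio of Fmo2 to Fmo5 in CPM was 3.74, 6.59, 5.24 and 5.41 with TNF-α, against 8.16, 14.5, 11 and 8.15 without it.

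Slc44a1 encodes a choline transporter of the plasma membrane and mitochondria. It stood at 62.4 and 65.8 CPM with both agents and 66.9 and 56.9 CPM with TNF-α alone, against 88.5 and 83.3 CPM with TMAO alone and 80.1 and 85.4 CPM in control. The 2 sets of libraries did not overlap. Such separation was seen in 3 of the 10 members and in 13 of the 35 other pathway genes tested, which are described below. Its share over all genes was not computed. Means were 63.0 ± 4.52 CPM with TNF-α and 84.3 ± 3.53 CPM without it (SD, n = 4 each). The averaged log2 fold change was −0.42 ± 0.081 (SE), with a 95% interval of −0.61 to −0.23 and an edgeR adjusted p of 0.0197.

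**Figure D2:**
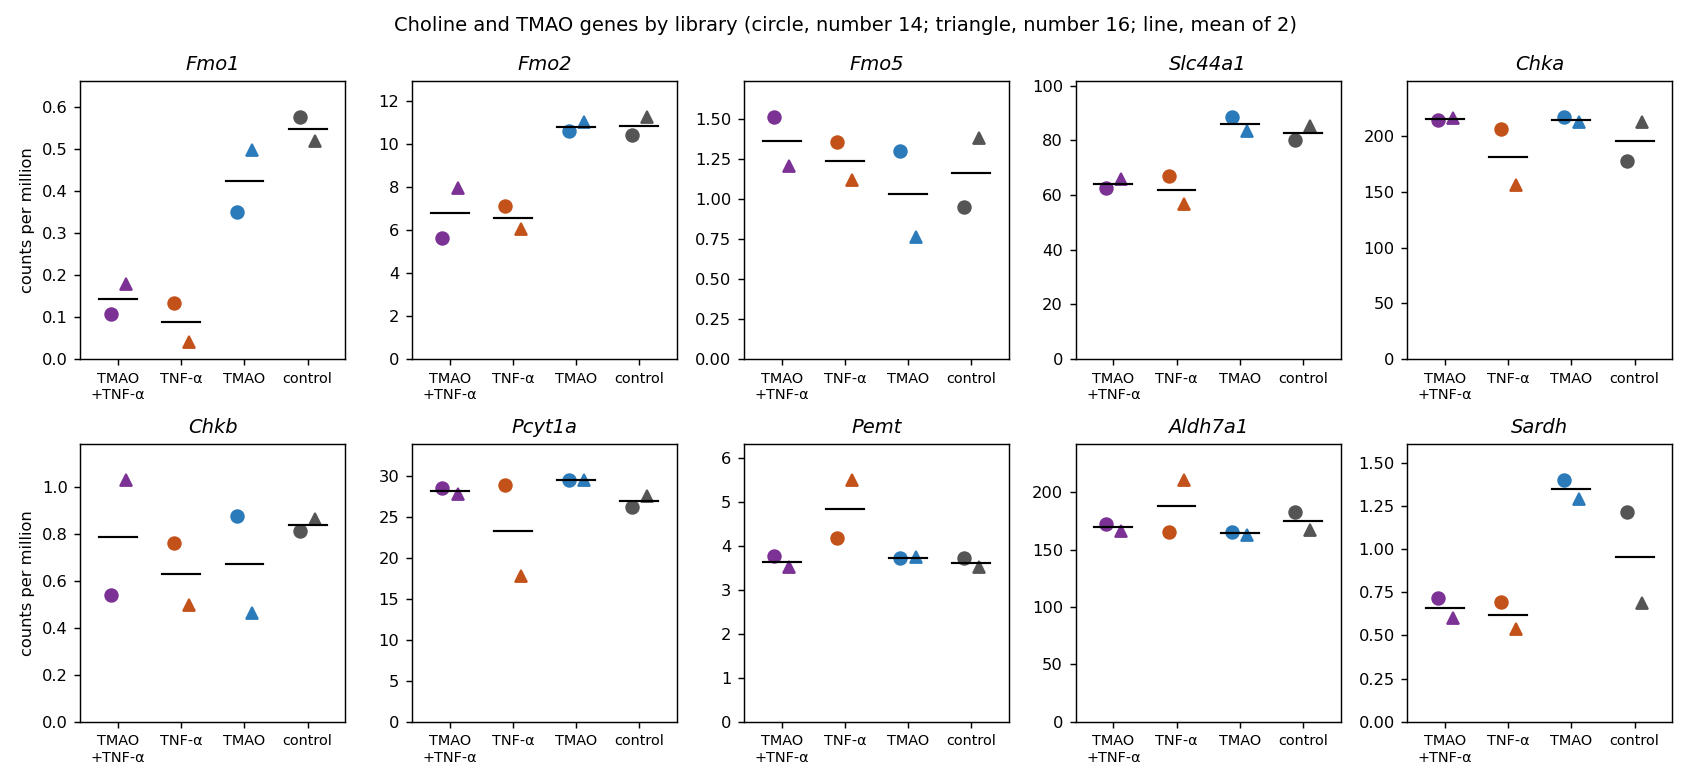
CPM (linear axes from 0) of the 10 genes in each library (circle, number 14; triangle, number 16), with a line at the mean of 2 libraries, for the combined, TNF-α, TMAO and control groups from left to right. For Fmo1, Fmo2 and Slc44a1 the 4 libraries with TNF-α lie below the 4 without it; for Pcyt1a and Chka the TNF-α library numbered 16 lies below the other 7.

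The cytokine effect was also taken in 2 pairs of groups that share no library. Their SE and p-values came from the same fit of all 8 libraries, so they are not separate. The averaged effect is the mean of the 2 and is not repeated by them. For Fmo1 the log2 fold change was −2.53 ± 0.60 (SE) with TNF-α against control and −1.54 ± 0.56 with the combination against TMAO. For Fmo2 it was −0.72 ± 0.19 with TNF-α against control and −0.67 ± 0.19 with the combination against TMAO. Slc44a1 had −0.42 ± 0.11 in both. None of these was called (edgeR adjusted p = 0.0731 to 0.264), and 0 of the 10 members were called in either pair, where 4.05% of all genes were called with TNF-α against control and 3.64% with the combination against TMAO. At an unadjusted p under 0.05 stood 3 members with TNF-α against control (Fmo1, Fmo2 and Slc44a1) and 4 with the combination against TMAO (these and Sardh), where 15.2% and 13.8% of all genes did so, and DESeq2 called Fmo2 alone with TNF-α against control. With the combination against control, 0 members were called, against 3.49% of all genes, and 3 were at an unadjusted p under 0.05, as were 13.5% of all genes. The interaction term, which tests whether the 2 cytokine effects differ, gave 0.99 (95% interval −1.04 to 3.01) for Fmo1, 0.047 (−0.58 to 0.67) for Fmo2 and −0.0043 (−0.38 to 0.38) for Slc44a1.

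The 3 log2 fold changes kept their sign when each library was left out in turn, at −2.56 to −1.77 for Fmo1, −0.82 to −0.57 for Fmo2 and −0.48 to −0.35 for Slc44a1. The calls of Fmo1 and Slc44a1 were lost without any 1 of 6 libraries (either combined, either TMAO or either control library), with adjusted p up to 0.114 and 0.142. That of Fmo2 was lost without any 1 of 5 (combined 14, either TMAO or either control library), up to 0.101. Without TNF-α 16 the 3 log2 fold changes were −1.77, −0.62 and −0.35, and without TNF-α 16 and control 14 together −1.73, −0.65 and −0.37. These fits leave 1 library in the TNF-α group, and the second also leaves 1 in control. Their calls do not cover the spread within those groups. The number of members called ran from 0 to 7, the highest being without TNF-α 14, which leaves TNF-α 16 as the one library of its group and where 7414 of all 15613 genes were called. With the number 14 or 16 as a block, only Fmo2 was called (adjusted p = 0.0426). Fitted on log2(TPM + 1) with limma, only Fmo1 was called, and Fmo2 (adjusted p = 0.135) and Slc44a1 (0.392) were not.

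**Figure D3:**
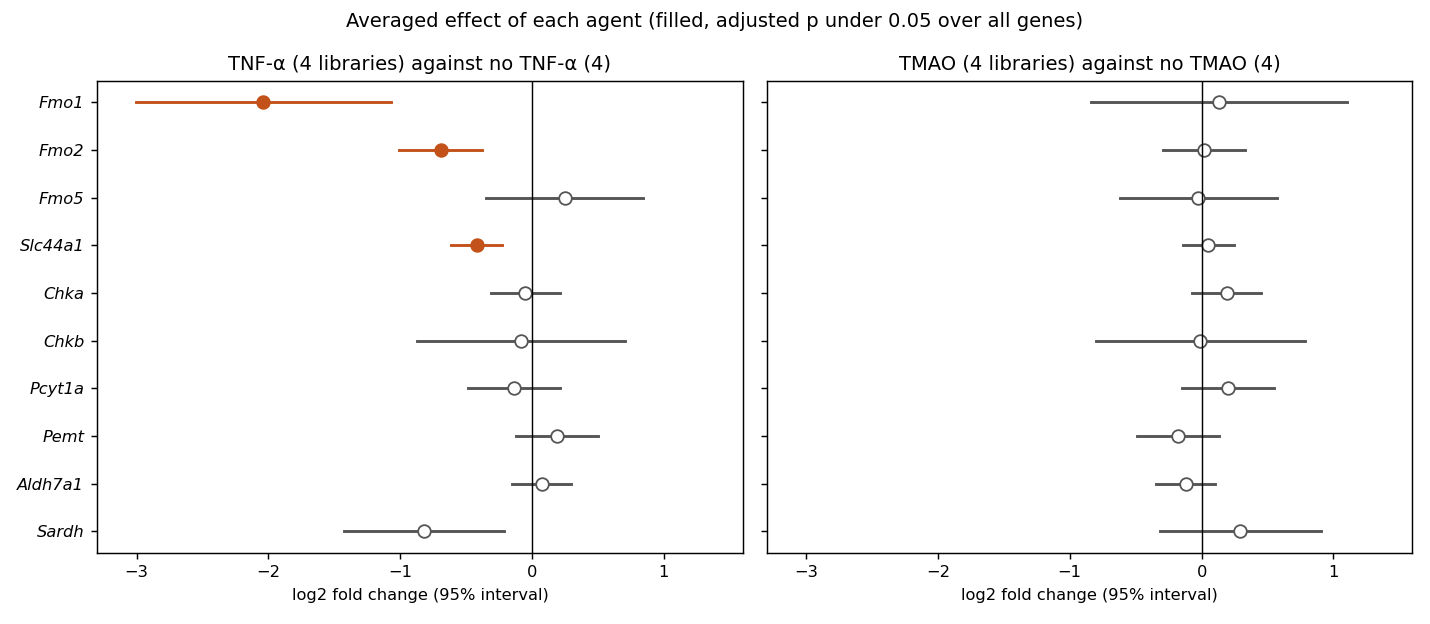
Log2 fold change with its 95% interval for the 10 genes, for TNF-α (4 libraries with it against 4 without, left) and for TMAO (4 against 4, right). Filled points are genes with an adjusted p under 0.05 over all genes tested; they are Fmo1, Fmo2 and Slc44a1 with TNF-α, and no gene with TMAO.

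Choline kinases commit choline to phosphatidylcholine. Chka had 214 and 216 CPM with both agents and 206 and 157 CPM with TNF-α alone, against 217 and 213 CPM with TMAO alone and 178 and 213 CPM in control. TNF-α 16 was the lowest and control 14 the next, and the other 6 lay within 206 to 217 CPM. Its averaged log2 fold change with TNF-α was −0.052 (95% interval −0.31 to 0.21, edgeR adjusted p = 0.867) and −0.0083 without TNF-α 16 and control 14. Chka has 12024 annotated exon bases and lies in the longest length class.

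Pcyt1a encodes the rate-limiting enzyme of the CDP-choline pathway, which makes CDP-choline. It stood at 28.5 and 27.8 CPM with both agents and 28.9 and 17.8 CPM with TNF-α alone, against 29.5 and 29.5 CPM with TMAO alone and 26.3 and 27.6 CPM in control. All but TNF-α 16 lay within 26.3 to 29.5 CPM. The averaged log2 fold change was −0.14 (−0.48 to 0.21, edgeR adjusted p = 0.724), and 0.013 without TNF-α 16 and control 14. In TPM it varied more, from 5.88 to 14.9, with a coefficient of variation of 37.8% over 8 libraries against 14.4% in CPM. It had 6.16 and 13.03 TPM with both agents and 6.88 and 7.66 TPM with TNF-α alone, against 14.9 and 13.4 TPM with TMAO alone and 5.88 and 8.76 TPM in control. Both TMAO libraries were the highest on either scale, by a narrow margin in CPM.

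Chkb, the second choline kinase, gave values that depend on the table. It had 15 and 29 counts with both agents and 23 and 12 with TNF-α alone, against 25 and 14 with TMAO alone and 24 and 25 in control. The TPM table gave it 21.6, 25.5, 30.1 and 34.1 TPM with TNF-α, against 20.8, 31.1, 21.3 and 17.7 TPM without it. CPM per kilobase over TPM, set to 1 for the median gene, was 0.0284 for Chkb, at percentile 0.572 of 12930 genes with at least 1 TPM. Of its exon bases 57.6% overlap another gene and 50.7% overlap one on the same strand, Gm44502, which was listed with 0 counts in every library. The counts of Chkb are therefore uncertain, and so is its averaged log2 fold change with TNF-α of −0.083 in counts (−0.88 to 0.71), which was 0.040 without TNF-α 16 and control 14 and 0.29 on the log2(TPM + 1) scale.

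Pemt, which methylates phosphatidylethanolamine to phosphatidylcholine, stood at 3.77 and 3.51 CPM with both agents and 4.17 and 5.50 CPM with TNF-α alone, against 3.71 and 3.75 CPM with TMAO alone and 3.72 and 3.52 CPM in control. Both TNF-α libraries were above the other 6. The log2 fold change was 0.41 ± 0.18 (SE) with TNF-α against control (edgeR adjusted p = 0.354) and −0.40 ± 0.18 with the combination against TNF-α (adjusted p = 0.569), and the interaction was −0.45 ± 0.26 (adjusted p = 0.954). None was called. Over all genes 0% were called with the combination against TNF-α and 0% for the interaction, where 549 and 184 genes had an unadjusted p under 0.05. Averaged over TMAO, the log2 fold change with TNF-α was 0.19, and 0.12 without TNF-α 16 and control 14. Without TNF-α 16 the first 2 values were 0.21 and −0.20. Without TNF-α 14, which leaves TNF-α 16 as the one library of its group, they were 0.59 and −0.57. That fit does not measure the spread within the TNF-α group. In TPM the values were 8.05 and 7.16 with both agents and 9.72 and 9.83 with TNF-α alone, against 9.29 and 8.08 with TMAO alone and 8.34 and 6.94 in control.

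Within the TNF-α group, the members' differences partly followed the exon length classes of all genes. TNF-α 16 minus TNF-α 14 was 0.39 for Pemt (2104 exon bases) and −0.55 for Chkb (3061 exon bases, at 12 to 29 counts a library), both of the shortest class, −0.40 for Chka and −0.70 for Pcyt1a (longest class). Of length class 3, whose median over all genes was −0.15, Slc44a1 and Fmo2 had −0.24 and −0.23, whereas Aldh7a1 had 0.35. The part of exon length in the members' results was not tested.

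**Figure D4:**
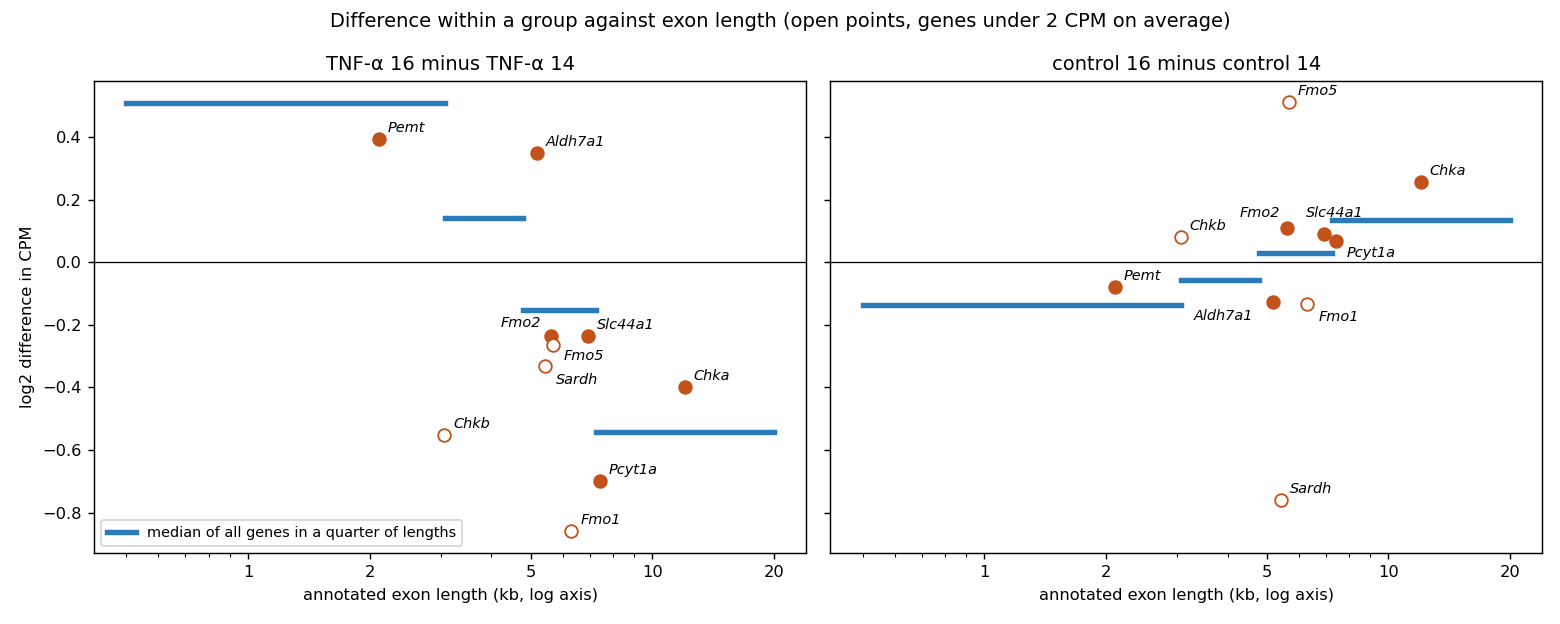
Log2 difference in CPM between the libraries of the TNF-α group (left) and of the control group (right) against annotated exon length in kb (log axis). Points are the 10 genes, open where their mean is under 2 CPM, and bars are medians of all genes with at least 10 CPM in each of 4 length classes, drawn from 0.5 to 20 kb; the bars step down from 0.51 to −0.54 in the TNF-α group and up from −0.14 to 0.13 in the control group.

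Aldh7a1, an aldehyde dehydrogenase that oxidises betaine aldehyde to betaine and also acts in lysine breakdown, had 172 and 167 CPM with both agents and 165 and 211 CPM with TNF-α alone, against 166 and 163 CPM with TMAO alone and 183 and 167 CPM in control. TNF-α 16 was the highest and control 14 the next. The averaged log2 fold change was 0.075 (−0.15 to 0.30, edgeR adjusted p = 0.767). Without TNF-α 16 it was −0.0052, without TNF-α 16 and control 14 it was 0.027, and on the log2(TPM + 1) scale −0.084, so its sign differed between settings.

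Sardh, the mitochondrial enzyme that demethylates sarcosine to glycine, had 20 and 17 counts with both agents and 21 and 13 with TNF-α alone, against 40 and 39 with TMAO alone and 36 and 20 in control. In CPM these were 0.719, 0.603, 0.695 and 0.538 with TNF-α, against 1.40, 1.29, 1.22 and 0.689 without it. Control 16 lay among the libraries with TNF-α, and the other 3 without it lay above them. The averaged log2 fold change was −0.82 ± 0.26 (SE; 95% interval −1.43 to −0.21), which was not called (edgeR adjusted p = 0.113). It was −1.02 ± 0.36 with the combination against TMAO and −0.62 ± 0.37 with TNF-α against control. With TNF-α 16 and control 14 left out, TNF-α 14 against control 16 gave 0.021 and the averaged value was −0.49 (adjusted p = 0.279). In that setting the combination against TMAO gave −1.01. Without TNF-α 14 the averaged value was −0.92. Each of these fits leaves 1 library in the TNF-α group. In the fit of the combined and TMAO groups only, Sardh was called lower (−1.01, edgeR adjusted p = 0.026), where 4844 of all 15613 genes were called.

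TMAO itself was followed by no called member. In the comparison of the 4 libraries with TMAO against the 4 without it, 0 of 10 members were called, where 0% of all genes were called and 453 had an unadjusted p under 0.05. Log2 fold changes ran from −0.18 for Pemt to 0.29 for Sardh, with edgeR adjusted p of 0.660 to 0.991. The 95% intervals were −0.14 to 0.24 for Slc44a1, −0.35 to 0.11 for Aldh7a1 and −0.072 to 0.45 for Chka, and that of Fmo1 was the widest of the 10, at −0.84 to 1.10. With TMAO alone against control, 0 members were called and 0% of all genes. None of the 10 members had an unadjusted p under 0.05, where 1.18% of all genes did. The means of Fmo2 were 10.8 ± 0.323 CPM with TMAO and 10.8 ± 0.587 CPM in control (SD, n = 2 each). For Chka, Pcyt1a and Aldh7a1 the averaged TMAO effect was called only without TNF-α 14, at 0.31, 0.41 and −0.19, where TNF-α 16 is the one TNF-α library, and it was 0.032, 0.026 and 0.00031 without TNF-α 16 and control 14.

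Around the members, 58 other genes of choline, methyl group and phospholipid metabolism were listed, of which 55 were in the count table and 35 passed the filter. With TNF-α averaged over TMAO, 6 of the 35 were called lower and 1 higher, beside the 3.86% and 5.35% of all genes. Their median log2 fold change was −0.098. These lists, too, were chosen with earlier results of these data known. In every comparison of TMAO and in the interaction 0 were called. Of the 6 lower genes, 2 are transporters, 2 act on methyl carriers or their products and 2 belong to phosphatidylcholine turnover.

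Flvcr2, a choline transporter, had 12.4, 12.3, 11.8 and 9.68 CPM with TNF-α, against 17.6, 17.4, 20.4 and 20.1 CPM without it (combined then TNF-α, and TMAO then control). The 2 sets did not overlap, and the averaged log2 fold change was −0.70 ± 0.090 (SE; edgeR adjusted p = 0.00359). This call held without each library in turn (adjusted p up to 0.0363), but not with limma on log2(TPM + 1) (adjusted p = 0.112). Flvcr2 was also called lower with TNF-α against control (−0.91, adjusted p = 0.0117) and with the combination against control (−0.71, adjusted p = 0.0297), which share the control libraries. With the block the first was called (adjusted p = 0.0337) and the second was not (0.0728). Leaving out any 1 of 5 libraries ended the first (adjusted p up to 0.12), and any 1 of the 6 outside the TNF-α group ended the second (up to 0.28). Slc44a3, a relative of Slc44a1, averaged 12.6 ± 0.438 CPM with TNF-α and 17.4 ± 0.688 CPM without it (SD, n = 4 each). Its averaged log2 fold change was −0.46 (edgeR adjusted p = 0.00962). Slc44a3 was also called lower with the combination against control (−0.53, edgeR adjusted p = 0.0441). That call was lost with the block (0.116) and without any 1 of the 6 libraries outside the TNF-α group. Of the other transporters tested, Slc44a2 had an averaged −0.13 and Flvcr1 −0.047, neither called.

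Pipox, a peroxisomal oxidase of sarcosine and pipecolate, had 2, 5, 5 and 7 counts with TNF-α, against 15, 13, 23 and 25 without it, and fell by 1.88 on the log2 scale (edgeR adjusted p = 0.0202). Its counts thus lay in the same low range as those of Fmo1, and it too passed the filter through the libraries without TNF-α. Pipox was also called lower with the combination against control (−2.67, edgeR adjusted p = 0.0421). That call was lost with the block for the number 14 or 16 (0.0912) and without any 1 of the 6 libraries outside the TNF-α group. Cbs, which joins homocysteine and serine, averaged 2.03 ± 0.298 CPM with TNF-α and 3.69 ± 0.37 CPM without it (SD, n = 4 each; log2 fold change −0.86, edgeR adjusted p = 0.015).

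Among genes of phosphatidylcholine turnover, Gpcpd1, a hydrolase of glycerophosphocholine, had 27.1, 27.2, 24.5 and 18.4 CPM with TNF-α, against 43.9, 44.8, 36.0 and 43.6 CPM without it. Its averaged log2 fold change was −0.80 ± 0.11 (SE; edgeR adjusted p = 0.0063), and it was called with TNF-α against control too (−0.89, adjusted p = 0.032). The second call was lost with the number 14 or 16 as a block (adjusted p = 0.0841) and without any 1 of the 6 libraries outside the TNF-α group (up to 0.266). Lpcat3, which reacylates lysophosphatidylcholine, averaged 89.8 ± 2.74 CPM with TNF-α and 119 ± 2.42 CPM without it (SD, n = 4 each; log2 fold change −0.41, adjusted p = 0.00934). Pld2, a phospholipase D that releases choline from phosphatidylcholine, was the one higher gene, at 29.8 ± 1.79 CPM with TNF-α and 21.9 ± 0.645 CPM without it (log2 fold change 0.44, adjusted p = 0.0127).

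Of these 7, the averaged calls of 6 were lost without some single library. Those of Slc44a3, Cbs and Lpcat3 were lost without either combined, either TMAO or either control library, with adjusted p up to 0.0752, 0.0841 and 0.0778. Those of Pipox and Pld2 were lost without combined 14, either TMAO or either control library, up to 0.0949 and 0.0906. That of Gpcpd1 was lost without either combined library, up to 0.0506. Without TNF-α 16 and control 14 together, log2 fold changes were −0.62 for Flvcr2, −0.42 for Slc44a3, −2.11 for Pipox and −0.91 for Cbs. They were −0.76 for Gpcpd1, −0.40 for Lpcat3 and 0.42 for Pld2. That setting leaves 1 library in each of the TNF-α and control groups, so its calls do not cover the spread within them. Fitted on log2(TPM + 1) with limma, Pipox and Cbs were called (adjusted p = 0.0364 and 0.0374), and Flvcr2, Slc44a3, Gpcpd1, Lpcat3 and Pld2 were not (0.112 to 0.631). In the lists with no call, the smallest p with TNF-α belonged to Cept1 of the CDP-choline pathway (−0.21, adjusted p = 0.126), Ptdss1, a phosphatidylserine synthase (−0.17, adjusted p = 0.27), and Aldh9a1 of carnitine synthesis (0.096, adjusted p = 0.523).

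Several steps of the pathway were hardly or not detected. Chdh, the choline dehydrogenase that makes betaine aldehyde, the betaine-homocysteine methyltransferases Bhmt and Bhmt2, and Dmgdh, which demethylates dimethylglycine, had 0 counts in all 8 libraries. So had Slc22a2, Slc22a3, Enpp6 and Lpcat2. A count of 0 in 227846231 counts allows a level of up to 0.0132 CPM. Fmo6, Fmo9, Slc44a5, Slc6a12, Slc25a48, Lpcat1 and Bbox1 had at most 3 counts in a library. Fmo4 had 48 counts in all and did not pass the filter. The genes at 0 were not detectable at this depth, whereas the members Aldh7a1 and Sardh of the same oxidation route had at least 4704 and 13 counts in every library.

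Of the 4 members with at least 10 CPM on average, Pcyt1a varied most over the 8 libraries (SD of log2 CPM 0.243) and Aldh7a1 least (0.124). The genes whose centred log2 CPM was nearest to that of Pcyt1a over the 8 libraries were Phlpp1, Atxn2 and Fam193a, with a root mean square difference of 0.0270, 0.0271 and 0.0280 among 8986 genes. Nearest to Aldh7a1 were Ctsa, Gm6548 and Plod3, at 0.0188, 0.0214 and 0.0215. These likenesses share the 8 libraries and so also the departure of TNF-α 16.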

How the data were processed

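Paired reads were made from bead-selected, fragmented mRNA, per the labels' protocols. The authors deposited counts per Ensembl gene, raw and by htseq per the file's name, and TPM values per gene symbol. Per the submitters' processing notes the build was mm9. The sources used here do not give the aligner, annotation, strand setting or TPM program, so reads of antisense partners cannot be told apart. Symbols and exon lengths came from GENCODE M21, in which 54409 identifiers matched without version and 37 did not. Promoters came from RefSeq (GRCm38.p6). Fmo1 had no entry there, and members on chromosome 18, where Aldh7a1 lies, were left out of the promoter search. Repeated symbols (95) and symbols turned into dates (27) were left out of the TPM values.

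Counts were fitted with edgeR 4.0.16 in R 4.3.3 (filterByExpr, TMM, 4 group means over 8 libraries, robust quasi-likelihood, Benjamini-Hochberg adjustment over 15613 genes at 0.05). The script was tested on simulated data. Groups came from the titles. Averaged effects are the mean of 2 contrasts. CPM are counts over TMM-scaled library totals. The 95% intervals use no adjustment over genes. Library limits are 3 counts. Alternatives were DESeq2 1.42.0, other scalings and filters, a block for the number 14 or 16, pairs of groups, left-out libraries, and limma 3.58.1 on log2(TPM + 1) and log2(TPM + 0.1).

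The members, lists and tests were chosen with earlier results of these data known. Other pathway genes are named if called in any contrast or, in a list with none, for the smallest p with TNF-α; their alternatives were added after seeing the data. Genes alike to a member are the 3 nearest to the most and the least variable member of at least 10 CPM.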

Additional observations from a re-analysis of the deposited data

How the results depend on the processing

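Values below are counts of called genes or log2 fold changes from the averaged or paired comparisons. Their causes were not tested beyond the fewer genes or libraries that a setting holds. A fit that leaves 1 library in a group does not measure the spread within that group. The 3 members called with TNF-α averaged over TMAO were 3 with other scalings, with DESeq2, with no filter and without TNF-α 16 and control 14. With at least 1 CPM in 2 libraries they were 2 of the 8 members tested. They were 1 with the replicate block and 1 with limma on log2(TPM + 1) or log2(TPM + 0.1). They were 0 with a mean of at least 1 TPM, and 0 to 7 without each library in turn. Members called in the other comparisons were 0 to 7 (TNF-α against control), 0 to 3 (combination against control), 0 to 4 (combination against TNF-α), 0 to 2 (combination against TMAO), 0 to 3 (TMAO averaged) and 0 to 2 (interaction) without each library in turn. With no filter, 1 was called with TNF-α against control and 1 with the combination against control, and DESeq2 called 1 with TNF-α against control. In fits of only the groups compared, 2 were called with the combination against control and 3 against TMAO; without TNF-α 16 and control 14 these were 2 and 3, and 2 with TNF-α against control.

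Over all genes, calls without each library ran from 0 to 9 (TMAO against control), 92 to 7966 (TNF-α against control), 89 to 2965 (combination against control), 0 to 8043 (combination against TNF-α), 72 to 2608 (combination against TMAO), 655 to 7414 (TNF-α averaged), 0 to 7327 (TMAO averaged) and 0 to 5800 (interaction), the highest of all but the first without TNF-α 14. Without TNF-α 16 and control 14 they were, in the same order, 48, 3278, 3700, 13, 4830, 5494, 65 and 1. With no filter they were 2, 954 and 895 for the agents and combination against control, 898 for the combination against TMAO and 7 for TMAO averaged, and with DESeq2 4, 960, 899, 908 and 4. In fits of only the groups compared they were 4, 3 and 2373 against control and 4844 for the combination against TMAO. With limma on log2(TPM + 1), log2(TPM + 0.1) and a mean of at least 1 TPM they were 144, 114 and 246 for TNF-α against control, 128, 104 and 269 for the combination against control, 1, 2 and 2 for the combination against TNF-α, 176, 158 and 283 for the combination against TMAO, and 605, 603 and 754 for TNF-α averaged.

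The numbers 14 and 16 are shared labels only. The differences of 14 minus 16 correlated across genes at −0.42 between control and TNF-α and between −0.046 and 4.34e-05 for the other pairs of groups. With the replicate block 342, 301 and 323 genes were called with TNF-α against control, the combination against control and the combination against TMAO.

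Fold changes that turned sign were all uncalled with 8 libraries. With TNF-α averaged these were Chka (−0.16 to 0.053 without each library), Chkb (−0.34 to 0.18; 0.040 without TNF-α 16 and control 14; 0.29, 0.30 and 0.29 in the TPM fits), Pcyt1a (−0.33 to 0.030; 0.013) and Aldh7a1 (−0.0052 to 0.16; −0.084, −0.084 and −0.084 in the TPM fits), and with TNF-α against control Sardh (0.021 without both libraries). With TMAO averaged these were Fmo1 (−0.13 to 0.67; −0.091), Fmo2 (−0.11 to 0.14; −0.065), Slc44a1 (−0.0081 to 0.12; −0.031), Chkb (−0.28 to 0.19), Fmo5 (−0.24 to 0.14; 0.039 and 0.081 in TPM), Aldh7a1 (0.00031 without both libraries; 0.11 in TPM) and Sardh (−0.0080 on log2(TPM + 0.1)). Depth limits Fmo1, Fmo5, Chkb and Sardh, at 1 to 42 counts a library, most.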
